A study of Homo sapiens with 16 samples.

Results

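The 6 cultured samples of a neuroblastoma RNA sequencing series fell into a pair of expression states that crossed the experimental groups, and these states are described here. One side held CTRL replicate 2, MOXD1 OE replicate 1 and MOXD1 OE replicate 2, and the other held CTRL replicates 1 and 3 and MOXD1 OE replicate 3. Both sides were chosen by the scores of the same 6 samples on the first principal component of expression, so 3 of the 6 cultured samples (of 16 samples in the series) were set against the other 3 by their own expression. Every difference between the sides is therefore a description, with no p-value. The sides are named after CHAC1, a gene of the amino acid response that was high in one of them, as the CHAC1-high and the CHAC1-low samples.

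All samples came from SK-N-BE(2)c, an established, MYCN-amplified neuroblastoma cell line of the adrenergic (noradrenergic neuron-like) type, grown in MEM with fetal bovine serum. The study asked what forced expression of MOXD1, a monooxygenase related to the noradrenaline-producing enzyme DBH, does to these cells. CTRL cells (labelled WT) carried a lentiviral control plasmid and MOXD1 OE cells a lentiviral MOXD1 vector, with 3 cultured samples per group, and the remaining 10 samples were tumors that the same cells formed under the skin of athymic mice, 5 per group. Whether the transduced cells were selected or cloned, and whether the cultures shared a plating day, is not given in the sources used here, and no label names a batch. The sides follow the replicate number for replicates 2 and 3, and same-numbered CTRL and MOXD1 OE samples deviated together (correlations of 0.677 and 0.682 for these numbers and 0.192 for replicate 1), so an effect of the culture day or medium cannot be told apart from the states.

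Libraries held between 25359185 and 29860356 counts in the cells. The share of counts on mitochondrially encoded genes was 25.9%, 47.9% and 21.6% in CTRL 2, MOXD1 OE 1 and MOXD1 OE 2, and 30.9%, 18.5% and 16.3% in CTRL 1, CTRL 3 and MOXD1 OE 3. MOXD1 OE 1 had the highest share, and the part of this share in the results below was not tested. Of 12 markers of the line 11 passed the filter on low counts, and MYCN, the amplified oncogene, lay between 3804.8 and 5747.2 CPM, the reads of a gene scaled to a fixed number of counted reads with TMM library sizes. TH, the first enzyme of catecholamine synthesis, had at most 10 counts in any sample. Of the markers of other cells, COL1A1 (fibroblasts), PTPRC (leukocytes), VWF (endothelium) and SOX10 (Schwann cells) had 0 counts in all 6 samples, and the floor used here, 3 counts, equals 0.100 to 0.118 CPM in these libraries. From the fibroblast list 4 of 7 genes, LUM, DCN, PDGFRA and PDGFRB, passed the filter and none separated the sides. The list summed to between 22.6 and 81.1 CPM in the CHAC1-high and between 21.9 and 35.6 CPM in the CHAC1-low samples. The epithelial list summed to between 1.29 and 2.63 CPM against 0.737 and 1.42 CPM, with EPCAM alone passing the filter, and the myeloid list to at most 1.66 CPM with CD68 alone. The endothelial list stayed at or under 0.100 CPM. These list sums and the floor were scaled to the total counts of each library without TMM. They are therefore not on the scale of the CPM of single genes. The part of these cells in the results was not tested.

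MOXD1, on chromosome 6 from 132296055 to 132401475 of GRCh38, had 1, 19 and 0 counts in CTRL replicates 1 to 3 and 1138, 9943 and 4573 counts in MOXD1 OE replicates 1 to 3. The labels of the groups were thus borne out in each sample. On each side the MOXD1 OE samples lay above the CTRL samples, but the sides crossed the order of MOXD1: the CHAC1-high CTRL sample had 0.698 CPM and the CHAC1-low MOXD1 OE sample had 161.7 CPM.

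**Figure D1:**
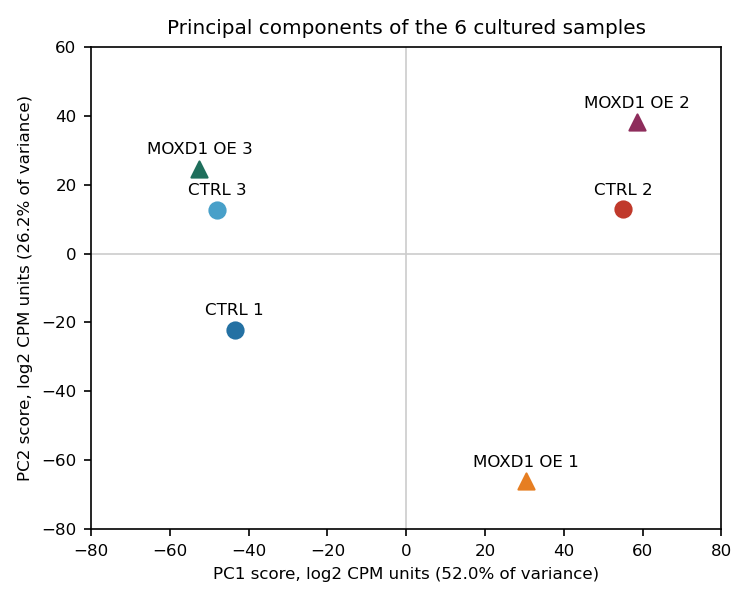
Scores of the 6 cultured samples on the first and second principal components of log2 CPM over 15899 genes, with circles for CTRL and triangles for MOXD1 OE samples. The first component (52.0% of the variance) puts CTRL 2, MOXD1 OE 1 and MOXD1 OE 2 to the right of 0 and the others to the left. The second (26.2%) sets MOXD1 OE 1 at -66.1, apart from all other samples.

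The first component held 52.0% of the variance over the 15899 genes that passed edgeR's filter on low counts, and 68.6% over the 500 most variable genes. Its scores were 55.1, 30.5 and 58.6 for CTRL 2, MOXD1 OE 1 and MOXD1 OE 2, and -43.6, -48.1 and -52.5 for CTRL 1, CTRL 3 and MOXD1 OE 3. MOXD1 OE 1 had the smallest score of its side, and the plot of both components shows it farthest from 0 on the second. Leaving out mitochondrially encoded genes kept the first component at 52.2%, with MOXD1 OE 1 at 30.2.

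Genes were counted as higher or lower where the 3 samples of one side all lay above the 3 of the other and the mean log2 CPM differed by over 1, that is, over a doubling. By this rule 1296 genes (8.15% of those tested) were higher in the CHAC1-high samples and 586 (3.69%) were lower. Without the size criterion, 17.6% of genes were higher with no overlap and 19.5% were lower with no overlap. These shares are the background for each gene list below. Leaving out MOXD1 OE 1 gave 1997 higher and 1011 lower genes. With the TPM values that the authors deposited, 468 genes were higher and 577 lower, so that 44.8% of the genes were higher, against 68.9% with counts. TPM took a pseudocount of 1 and the counts a prior count of 2. These offsets are unlike and weigh most on genes of low level, and their part in this change was not tested. Just inside the limit lay EIF4G3 at 1.002, and just outside lay ZNF354A at 0.9999 and NOL6 at -0.9995.

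Many genes that separated the sides belong to the integrated stress response and the unfolded protein response. When amino acids run short, or when unfolded proteins collect in the endoplasmic reticulum (ER), kinases such as GCN2 and PERK phosphorylate the initiation factor eIF2, general translation drops and the transcription factor ATF4 is made. ATF4 binds, with C/EBP proteins, to C/EBP-ATF response elements in front of genes for amino acid synthesis, transport and tRNA charging, whereas the ATF6 and XBP1 arms of the unfolded protein response act through the ER stress response element in front of ER chaperone genes.

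Promoter sequences of RefSeq (build GRCh38.p14) show both elements in front of genes that separated the sides. The ER stress response element is also in front of PDIA6 and CANX, which did not separate them. They were searched on both strands for the core TGATGNAA of the C/EBP-ATF element, in a window from 250 bases before to 50 after each start. Stretches are given 5′ to 3′ on the strand of the gene, with the matched letters in capitals, for the markers CHAC1 and ASNS, for other members of the amino acid response list, and for HERPUD1 of the ER list. TTGCATCA is the match on the opposite strand. The stretches of CHAC1 and ASNS lie before the RefSeq start that was used. In the wider gene annotation they fall inside the gene and in an annotated exon.
CHAC1 (chr15:40953251-40953280, plus strand): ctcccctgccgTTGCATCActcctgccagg
ASNS (chr7:97872458-97872487, minus strand): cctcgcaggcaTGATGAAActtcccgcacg
FGF21 (chr19:48755444-48755503, plus strand): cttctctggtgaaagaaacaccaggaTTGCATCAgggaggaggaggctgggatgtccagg
CEBPG (chr19:33374045-33374104, plus strand): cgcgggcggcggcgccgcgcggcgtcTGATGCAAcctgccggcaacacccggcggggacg
ATF3 (chr1:212565190-212565249, plus strand): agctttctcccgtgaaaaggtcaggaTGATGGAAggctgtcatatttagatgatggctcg
JDP2 (chr14:75427980-75428021, plus strand): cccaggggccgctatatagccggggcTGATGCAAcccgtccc
HERPUD1 (chr16:56931892-56932141, plus strand): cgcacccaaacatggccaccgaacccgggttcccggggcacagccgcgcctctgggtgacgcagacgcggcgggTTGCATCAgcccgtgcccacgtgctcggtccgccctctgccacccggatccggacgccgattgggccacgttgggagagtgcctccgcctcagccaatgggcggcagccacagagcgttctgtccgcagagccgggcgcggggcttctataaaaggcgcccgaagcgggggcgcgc

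The core was in 10 of the 36 amino acid response genes with an entry in the table (27.8%) and in 7 of 16 tRNA synthetase genes (43.8%), against 2.63% of the 9633 tested genes with an entry and 3.62% of all 35116 promoters. Among the genes that were higher in the CHAC1-high samples it was in 43 of 638 (6.74%), and among those that were lower in 7 genes (1.79%). The ER stress response element, searched as CCAAT, 9 bases of any kind and CCACG and added after the values were seen, was in 8 of 23 ER genes (34.8%) against 0.156% of the tested genes. No printed stretch matched both searched motifs, and other forms of the ER stress response element were not searched. The amino acid response and ER lists were put together from genes known for these responses, so their shares of matches follow from that choice. The higher genes include members of these lists and come from the split itself, so their share is no separate evidence. A match is a description of the sequence and shows no binding.
HSPA5 (chr9:125241383-125241593, minus strand): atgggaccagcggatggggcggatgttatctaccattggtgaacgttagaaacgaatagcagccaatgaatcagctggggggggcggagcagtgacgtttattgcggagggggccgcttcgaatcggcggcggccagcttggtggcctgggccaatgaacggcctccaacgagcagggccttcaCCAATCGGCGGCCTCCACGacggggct
XBP1 (chr22:28800598-28800647, minus strand): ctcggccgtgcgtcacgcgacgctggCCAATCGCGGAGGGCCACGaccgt
CRELD2 (chr22:49918528-49918598, plus strand): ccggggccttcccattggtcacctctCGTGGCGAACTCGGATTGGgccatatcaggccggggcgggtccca
ERO1B (chr1:236282157-236282208, minus strand): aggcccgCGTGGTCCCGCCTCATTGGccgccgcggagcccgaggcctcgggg
DBH, the remaining marker of the states, had neither motif in its window, and the bases before its start are shown for comparison.
DBH (chr9:133636113-133636362, plus strand): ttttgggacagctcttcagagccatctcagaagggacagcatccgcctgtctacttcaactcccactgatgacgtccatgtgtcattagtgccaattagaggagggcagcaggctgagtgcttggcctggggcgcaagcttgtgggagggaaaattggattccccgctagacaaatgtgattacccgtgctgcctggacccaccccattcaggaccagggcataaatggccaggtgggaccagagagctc

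Genes of the amino acid response were higher in the CHAC1-high samples. Of the 46 genes, all tested, 34 were over 1 log2 higher in the CHAC1-high samples and 0 were lower by that size, against 8.15% and 3.69% of all genes. The median difference of the list was 1.57 on the log2 scale, against -0.00248 over all genes tested. CHAC1, which degrades glutathione, had 82.5, 87.3 and 80.4 CPM in CTRL 2, MOXD1 OE 1 and MOXD1 OE 2. It had 7.66, 8.72 and 6.37 CPM in CTRL 1, CTRL 3 and MOXD1 OE 3. The CHAC1-high mean was 83.4 ± 3.52 CPM (SD, n = 3) and the CHAC1-low mean 7.58 ± 1.18 CPM (SD, n = 3), an 11-fold difference of the log2 means in which all 3 samples of the high side were alike.

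Among the transcription factors, the factor at the head of the response differed by less than a doubling. ATF4 had 2159.0, 2271.7 and 2413.9 CPM in CTRL 2, MOXD1 OE 1 and MOXD1 OE 2, and 1205.9, 1169.3 and 1253.4 CPM in CTRL 1, CTRL 3 and MOXD1 OE 3, a 1.89-fold difference that stayed under the limit of 1 log2. Its control is known to lie largely in translation, which RNA counts do not show. DDIT3 (CHOP), a target that is linked to cell death in prolonged stress, had 119, 126 and 120 CPM on the high side against 21.2, 22.0 and 26.6 CPM on the low side. ATF5 had 104, 45.8 and 58.3 CPM against 3.34, 3.97 and 2.40 CPM. TRIB3, a pseudokinase that restrains ATF4 output, had 146, 47.1 and 119 CPM against 10.3, 6.58 and 5.87 CPM. The sides did not overlap for any of these genes, and MOXD1 OE 1 matched its side fully for ATF4 and DDIT3 but was the lowest of its side for ATF5 and TRIB3.

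Genes for secreted stress signals were close to silent on the low side. INHBE, which encodes an inhibin subunit and lies on chromosome 12 from 57452323 to 57459280, had 898, 327 and 907 counts in CTRL 2, MOXD1 OE 1 and MOXD1 OE 2 and 4, 2 and 2 counts in CTRL 1, CTRL 3 and MOXD1 OE 3. GDF15, a circulating stress hormone on chromosome 19 from 18374731 to 18389176, had 465, 111 and 305 counts against 1 count in each CHAC1-low sample. FGF21, another stress hormone, had 67, 34 and 59 counts against 0 in each CHAC1-low sample. ADM2 (adrenomedullin 2) had 54.3, 26.9 and 38.4 CPM against 1.40, 0.65 and 0.46 CPM. In each of these 4 genes MOXD1 OE 1 was the lowest of the CHAC1-high samples and well above every CHAC1-low sample.

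Enzymes and transporters of amino acids followed the same order. ASNS, which makes asparagine, had 148, 91.8 and 178 CPM in CTRL 2, MOXD1 OE 1 and MOXD1 OE 2 and 21.3, 22.3 and 24.3 CPM in CTRL 1, CTRL 3 and MOXD1 OE 3 (139 ± 43.7 against 22.6 ± 1.53 CPM, SD, n = 3 each, 5.92-fold). PSAT1 of the serine pathway had 1426.8, 1149.2 and 1749.0 CPM against 520, 536 and 578 CPM. SLC7A11, the cystine importer, had 167, 84.4 and 177 CPM against 6.14, 7.71 and 7.04 CPM, a 19.4-fold difference. ASS1, which makes argininosuccinate and is in none of the lists, had 1089.5, 688 and 762 CPM against 91.2, 99.4 and 91.4 CPM. The sides did not overlap in any of the 4. Members that did not separate were SLC38A2, CBS, LONP1, SQSTM1, PYCR1 and EIF4EBP1, and ALDH18A1 was lower without overlap, at -0.42.

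The tRNA synthetases, which charge tRNAs with amino acids, separated only in part: 2 of 19 tested genes were higher by over 1, 6 were higher and 4 lower with no overlap of any size. Over all genes 8.15% were higher by over 1, and 17.6% were higher and 19.5% lower with no overlap. WARS had 96.7, 22.7 and 70.6 CPM on the high side against 6.38, 8.01 and 9.48 CPM, and GARS had 439, 618 and 526 CPM against 270, 244 and 256 CPM. FARSA, FARSB, RARS and HARS were the 4 lower ones, with differences from -0.66 to -0.30. The list median was 0.68 in CTRL 2 and 0.63 in MOXD1 OE 2 but -0.15 in MOXD1 OE 1, relative to the CHAC1-low mean. That median covers members of both directions: in each of the 6 genes that were higher with no overlap MOXD1 OE 1 lay above every CHAC1-low sample, and it was the highest of all samples for GARS and for MARS, at 373 CPM.

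Genes of the unfolded protein response of the ER were also higher in the CHAC1-high samples, with MOXD1 OE 1 between CTRL 2 and MOXD1 OE 2 and the low side. Of 25 listed genes 24 were tested, 19 were over 1 log2 higher in the CHAC1-high samples, 0 were lower, and the median difference was 1.85. In all 19 MOXD1 OE 1 was the sample of its side nearest to the low side. Over all 1296 higher genes that held for 578 (44.6%), and for 27 of the 34 higher genes of the amino acid response (79.4%). In the lists of lower genes given below it held for 14 of 15 DNA replication genes and 11 of 13 mitosis genes, against 64.7% of all 586 lower genes, so the trait was not particular to the ER list.

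Chaperones of the ER showed this order plainly. HSPA5 (BiP), the main ER chaperone, had 9072.2 and 10389 CPM in CTRL 2 and MOXD1 OE 2, 3580.7 CPM in MOXD1 OE 1, and 1337.8, 1564.2 and 1713.0 CPM in CTRL 1, CTRL 3 and MOXD1 OE 3. HYOU1, a further chaperone, had 504 and 477 CPM in CTRL 2 and MOXD1 OE 2, but 55.1 CPM in MOXD1 OE 1, close to the 26.6, 43.1 and 43.0 CPM of the low side. HSP90B1 had 2618.6, 1349.0 and 2542.4 CPM on the high side against 469, 627 and 634 CPM. MOXD1 OE 1 lay above every CHAC1-low sample for each of the 3 genes, though by a small margin for HYOU1.

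Genes that clear misfolded proteins from the ER split in the same way. SEL1L, a part of the ubiquitin ligase complex in the ER membrane, had 149 and 206 CPM in CTRL 2 and MOXD1 OE 2, 16.5 CPM in MOXD1 OE 1 and 6.42, 9.22 and 9.48 CPM on the low side. EDEM1, which hands glycoproteins to this path, had 73.0 and 90.3 CPM, then 11.6 CPM in MOXD1 OE 1 and 4.01, 4.77 and 5.23 CPM. HERPUD1, whose promoter holds the C/EBP-ATF core shown above, had 511, 259 and 589 CPM on the high side against 57.7, 49.3 and 58.5 CPM, and here MOXD1 OE 1 lay nearer to its own side. Of the sensors, ERN1 (IRE1) had 2.87, 1.65 and 4.28 CPM against 0.58, 0.27 and 0.32 CPM, and its target XBP1 had 452, 286 and 465 CPM against 129, 129 and 148 CPM. CANX, PDIA6 and SEC61B did not separate. PDIA6 had 302 CPM in MOXD1 OE 1, within the 291 to 316 CPM of the low side.

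Cell cycle genes went the other way. Of 17 DNA replication genes 15 were over 1 log2 lower in the CHAC1-high samples and 0 were higher (median -1.39), and of 21 mitosis genes 13 were lower and 0 higher (median -1.10), against 3.69% of all genes that were lower by that size. TYMS, which makes thymidylate, had 68.5, 125 and 67.5 CPM in CTRL 2, MOXD1 OE 1 and MOXD1 OE 2 and 247, 273 and 284 CPM on the low side. CCNA2, the cyclin of S phase and mitosis, had 147, 229 and 176 CPM against 422, 453 and 514 CPM. The replication helicase gene MCM2 had 62.4, 78.6 and 38.2 CPM against 172, 189 and 163 CPM, and the mitotic kinase gene AURKB had 14.2, 18.7 and 8.59 CPM against 39.0, 46.1 and 40.6 CPM. CCND1, MKI67, CENPF, CENPE and TOP2A did not separate. RNA from whole cultures does not tell fewer cycling cells apart from less of these RNAs per cell. CDKN1A (p21), which halts the cycle and belongs to the p53 list, had 34.4, 20.9 and 34.1 CPM on the high side against 7.90, 9.76 and 9.02 CPM. Of the 17 tested genes of that list 4 were higher by over 1 (CDKN1A, BBC3, FAS and TNFRSF10B) and 0 were lower by that size. All genes gave 8.15% and 3.69% by that size. With no overlap of any size 5 were higher and 6 lower, with a median of -0.05, beside 17.6% and 19.5% of all genes. Among the lower ones BAX, which promotes cell death, had 46.6, 58.9 and 34.1 CPM against 92.7, 86.3 and 76.3 CPM.

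Several metabolic lists were lower by less than a doubling. In glycolysis, 3 of 19 genes were lower by over 1 and 14 were lower with no overlap (median -0.65), with TPI1 at 427, 491 and 339 CPM against 944, 775 and 739 CPM. PFKL, PFKP and PGAM1 were the 3 genes, and HK2 and SLC2A3 had positive differences of 0.67 and 1.92. Of 89 nuclear genes of the respiratory chain, 32 were lower with no overlap (median -0.45), but MOXD1 OE 1 had a list median of -0.10 against -0.52 and -0.65 in CTRL 2 and MOXD1 OE 2. That list was taken by symbol, which can bring in pseudogenes, and their number among the 89 was not counted. Of 24 cholesterol synthesis genes 10 were lower with no overlap (median -0.40), among them ACAT2 with 61.5, 85.0 and 65.7 CPM against 255, 213 and 239 CPM. These counts with no overlap stand beside the 19.5% of all genes. Of 18 heat shock genes 0 passed the size limit and 6 were lower with no overlap (median -0.49). Ribosomal protein genes had a median of -0.06, and 76 of the 82 tested overlapped between the sides.

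Genes of BMP signalling, among them the ID genes that restrain differentiation, were lower in part. Of 10 tested genes 4 were lower by over 1 (ATOH8, ID1, ID3 and MSX2), 6 were lower with no overlap, and 0 were higher (median -0.61). ID3 had 42.7, 39.7 and 36.7 CPM in CTRL 2, MOXD1 OE 1 and MOXD1 OE 2 against 122, 123 and 108 CPM, and ID1 had 24.3, 22.8 and 26.4 CPM against 65.1, 50.4 and 49.0 CPM. MOXD1 OE 1 fitted its side for both. VEGFA, the angiogenic growth factor, had 254, 157 and 243 CPM against 47.5, 48.5 and 46.5 CPM. It was the 1 gene of 14 on the hypoxia list higher by over 1, and ADM was the 1 lower gene, at -1.01. These counts stand beside 8.15% and 3.69% of all genes.

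DBH, the enzyme that turns dopamine into noradrenaline, was higher in the CHAC1-high samples. It lies on chromosome 9 from 133636363 to 133659329 and had 746, 266 and 403 CPM in CTRL 2, MOXD1 OE 1 and MOXD1 OE 2 and 118, 158 and 126 CPM in CTRL 1, CTRL 3 and MOXD1 OE 3 (472 ± 247 against 134 ± 21.3 CPM, SD, n = 3 each, 3.24-fold). The CHAC1-high samples differed among themselves more than the others did. Of the 13 tested genes of the catecholamine list, 1 (DBH) was higher and 1 (SPR, of the pteridine cofactor path) was lower by over 1. With no overlap of any size 4 were higher and 2 lower, and the median was 0.03. Beside these counts stand 8.15% and 3.69% of all genes by over 1, and 17.6% and 19.5% with no overlap. GCH1, which opens that cofactor path, had 149, 144 and 144 CPM against 91.2, 73.7 and 77.9 CPM. DDC had 191, 129 and 142 CPM against 108, 105 and 111 CPM.

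Of the 20 transcription factors of the adrenergic state 13 overlapped between the sides, beside 10010 of the 15899 genes tested, which is a like share. Of the 20 genes 2 were higher by over 1 (INSM1 and SATB1) and 1 was lower (LMO1), with a median of 0.01. GATA3, HAND2 and MYCN overlapped between the sides. Single genes of neuronal differentiation differed in both directions: RET, a receptor kinase, had 84.1, 56.7 and 54.1 CPM against 25.2, 29.5 and 24.01 CPM, and GAP43, a growth cone protein, had 174, 298 and 232 CPM against 463, 489 and 545 CPM. RET and GAP43 were the 1 higher and the 1 lower gene by over 1 of the 20 tested on their list, and 13 overlapped. Among granule and neuropeptide genes, SCG2 had 664, 489 and 681 CPM against 210, 280 and 299 CPM, and GAL (galanin) had 20.9, 28.8 and 16.4 CPM against 67.0, 65.9 and 59.9 CPM. Of the 19 tested genes of that list 3 were higher and 2 lower by over 1, and 13 overlapped. Over all genes 8.15% were higher and 3.69% lower by over 1.

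Replication-dependent histone genes, whose mRNAs normally end without a poly(A) tail, were higher in the CHAC1-high samples although replication genes were lower. Of 29 tested genes 13 were higher by over 1, 19 were higher with no overlap and 0 were lower (median 0.91), in libraries made from poly(A) RNA. HIST1H2AC had 84.9, 68.2 and 72.2 CPM on the high side against 23.6, 15.2 and 18.3 CPM. Many copies of these genes are near-identical, so reads may have been split among them. The list was taken by symbol and includes pseudogenes, such as HIST2H2BD. Of the 5 nuclear long noncoding RNAs 4 were higher by over 1 (NEAT1, MALAT1, KCNQ1OT1 and MIAT), with NEAT1 at 160, 271 and 108 CPM against 69.7, 63.4 and 41.0 CPM and KCNQ1OT1 at 18.0, 24.5 and 21.8 CPM against 6.84, 5.60 and 4.60 CPM. MOXD1 OE 1, the sample with the largest mitochondrial share, was the highest for both RNAs, and the part of that share in their levels was not tested.

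The higher and lower genes also differed in kind. Of the 1296 higher genes 58.4% were protein coding, against 85.3% of the 586 lower genes and 75.5% of all tested. Antisense RNAs made up 10.3% of the higher genes and 4.74% of all tested, and lincRNAs 9.95% and 4.44%. The sources do not say if strand was used in counting, so reads of an antisense RNA and of its partner gene cannot be told apart. The higher genes had a median of their mean levels of 2.29 CPM against 13.8 CPM for the lower ones. Median GC content was 44.7% for the higher, 50.02% for the lower and 45.02% for all tested genes. Among protein-coding genes the summed exon length had a median of 5707 bases in the higher and 3761 bases in the lower set, against 5307 bases over all tested.

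Autophagy and immediate early genes differed in a few members. WIPI1, an early factor of autophagosome formation, had 37.6 and 34.8 CPM in CTRL 2 and MOXD1 OE 2, 3.90 CPM in MOXD1 OE 1 and 0.712 to 1.66 CPM on the low side. MAP1LC3B, the autophagosome protein LC3B, had 111, 76.2 and 129 CPM in CTRL 2, MOXD1 OE 1 and MOXD1 OE 2 against 40.8, 34.9 and 37.8 CPM. With GABARAPL1 and ULK1 they were the 4 of 14 genes of the lysosome and autophagy list that were higher by over 1, and 0 were lower. EGR1, an immediate early transcription factor, had 279, 77.1 and 253 CPM against 39.9, 19.2 and 13.5 CPM, and with ZFP36 it made up the 2 of 16 immediate early genes that were higher. OAS3, an interferon-induced enzyme, had 4.59, 4.65 and 4.24 CPM against 14.4, 16.8 and 14.6 CPM, the 1 lower gene of 14 on the interferon list. GAS5, a snoRNA host gene, had 567, 577 and 567 CPM against 263, 196 and 251 CPM, the 1 higher gene of 22 on its list. Over all genes 8.15% were higher and 3.69% lower. The counts of the immediate early, interferon and snoRNA host lists lie near these shares. MOXD1 OE 1 matched its side for OAS3 and GAS5, but not for WIPI1.

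Outside the lists, the protein-coding genes with the largest differences included immune and channel genes. ULBP1, a ligand that marks stressed cells for natural killer cells, had 24.5, 18.4 and 34.3 CPM in CTRL 2, MOXD1 OE 1 and MOXD1 OE 2 against 0.58, 0.98 and 0.57 CPM. AKNA had 68.0, 20.3 and 61.8 CPM against 1.28, 1.54 and 1.03 CPM, and KLHDC7B had 591, 124 and 421 counts against 0, 1 and 1 counts. KCNA3, a potassium channel, had 27.5, 5.66 and 37.2 CPM against 1.21, 1.30 and 0.78 CPM. RNASE4 and AL163636.2 were also among them, but their exons overlap on the same strand of chromosome 14, so they may share reads. At the other end, SCGN (secretagogin), a calcium-binding protein, had 1.03, 0.90 and 1.68 CPM against 13.1, 8.66 and 7.71 CPM. TK1, thymidine kinase, had 25.7, 24.97 and 14.2 CPM against 77.7, 85.7 and 68.4 CPM. CHAC2, the paralog of CHAC1, was lower where CHAC1 was higher, with 4.04, 8.61 and 3.63 CPM against 16.9, 18.3 and 16.6 CPM.

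Whether MOXD1 OE replicate 1 fits its side was read with genes chosen without it. For 2745 genes the other 5 samples did not overlap and differed by over 1 log2, and each gene placed MOXD1 OE 1 between the mean of CTRL 1, CTRL 3 and MOXD1 OE 3 (position 0) and the mean of CTRL 2 and MOXD1 OE 2 (position 1). The median position was 0.571, with quartiles of 0.226 and 0.889, and 55.7% of the genes lay nearer to the high side. The same reading, each time without the sample placed, gave 0.936 for CTRL 2 and 0.867 for MOXD1 OE 2, and 0.220, 0.0491 and 0.0346 for CTRL 1, CTRL 3 and MOXD1 OE 3. Those readings rest on other genes (2075 for CTRL 2 and 2038 for MOXD1 OE 2) and on a high side that includes MOXD1 OE 1. The positions therefore do not share a scale. Within this limit MOXD1 OE 1 was the 1 sample near the middle. By zone, 709 genes (25.8%) put it under 0.25, 508 (18.5%) between 0.25 and 0.5, 552 (20.1%) between 0.5 and 0.75, and the others nearer to or beyond the mean of the high side. It was placed at 0.642 by the genes higher on the high side and at 0.490 by the lower ones.

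The middle position was an average over programs that differed. The amino acid response placed MOXD1 OE 1 at 0.775 (36 genes, 26 nearer to the high side), the histones at 0.847 (16 genes), mitosis at 0.673 (13 genes) and DNA replication at 0.555 (15 genes). The ER list placed it at 0.343, with 7 of 23 genes nearer to the high side. Within the amino acid response the position ran from 0.03 for SLC38A2, an amino acid carrier with 106 and 127 CPM in CTRL 2 and MOXD1 OE 2 but 24.97 CPM in MOXD1 OE 1, to 1.21 for DDIT4, a stress-induced inhibitor of mTOR. ERAP1, PRUNE2, FOS and TCEA1 were among the 8 protein-coding genes in which MOXD1 OE 1 departed most. FOS, an immediate early gene, had 79.6 and 42.1 CPM in CTRL 2 and MOXD1 OE 2 but 1.05 CPM in MOXD1 OE 1, within the 0.71 to 2.68 CPM of the low side. HMOX1 (heme oxygenase) had 12.7 and 9.14 CPM in those samples, 0.80 CPM in MOXD1 OE 1 and 0.25 to 0.62 CPM on the low side.

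**Figure D2:**
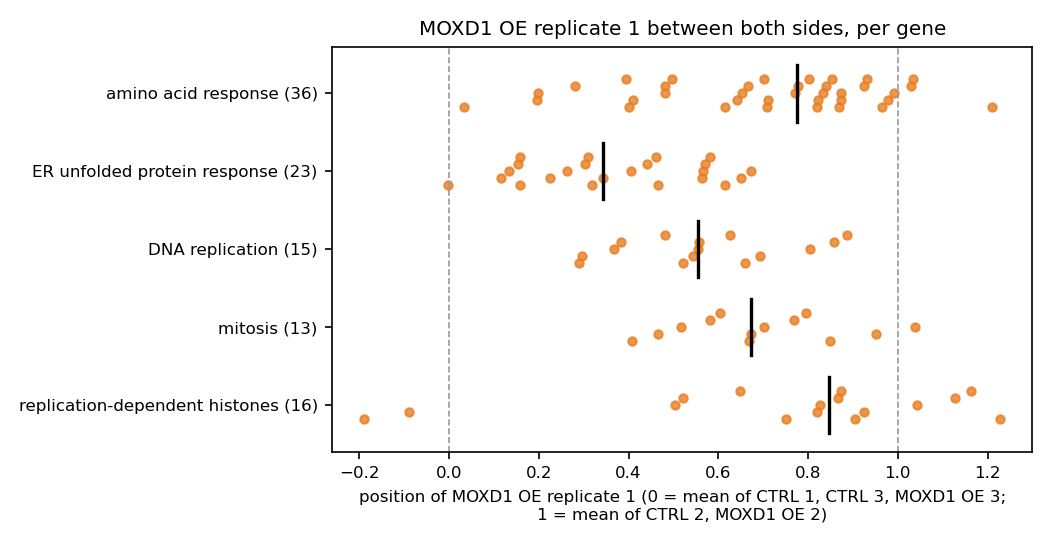
Position of MOXD1 OE 1 for the genes of 5 lists in which the other 5 cultured samples separate (1 point a gene, black bars mark medians), with 0 at the mean of CTRL 1, CTRL 3 and MOXD1 OE 3 and 1 at the mean of CTRL 2 and MOXD1 OE 2. The ER genes centre on 0.343 and the amino acid response genes on 0.775.

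Likeness over all genes did not settle the side of MOXD1 OE 1. Across the 15899 genes its log2 CPM correlated at 0.95486 with CTRL 1 of the low side, at 0.95425 with CTRL 2 and at 0.94305 with MOXD1 OE 2 of its own side, at 0.94279 with CTRL 3 and at 0.93820 with MOXD1 OE 3. CTRL 2 and MOXD1 OE 2 correlated at 0.97826, and CTRL 3 and MOXD1 OE 3 at 0.98764. The chi-square per degree of freedom between the counts of MOXD1 OE 1 and those of another sample was lowest for CTRL 1 (184.73), followed by CTRL 2 (241.46) and MOXD1 OE 2 (348.78). As deviations from the mean of all 6 samples, which lean to negative values because that mean is shared, MOXD1 OE 1 correlated at 0.0501 with CTRL 2, at -0.0918 with MOXD1 OE 2, at -0.113 with CTRL 1, at -0.499 with CTRL 3 and at -0.546 with MOXD1 OE 3. Genes are not independent of each other in any of these values.

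The difference was also read inside each genotype, as a description, since the sides were formed with these samples. In 1882 genes CTRL 2 was above both other CTRL samples and over 1 log2 above their mean. Of these genes 95.6% had a higher value in MOXD1 OE 2 than in MOXD1 OE 3 and 79.6% in MOXD1 OE 1 than in MOXD1 OE 3. In the 1009 genes where CTRL 2 was lower in this way, 91.2% and 77.7% were lower in MOXD1 OE 2 and MOXD1 OE 1. These shares count differences of any size. Held to over 1 log2, as CTRL 2 was against the mean of the other CTRL samples, they were 70.1% for MOXD1 OE 2 and 51.3% for MOXD1 OE 1 in the first set, and 63.1% and 22.3% in the second. Both MOXD1 OE readings share MOXD1 OE 3.

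The labelled contrast, which the split did not use, was tested with edgeR's quasi-likelihood test. In the cells 0 of 15899 genes (0%) had a Benjamini-Hochberg adjusted p under 0.05, and 187 had an unadjusted p under 0.05. DESeq2 called 3 genes, MOXD1, IFI27L2 and AC233968.1, and blocking on the replicate number in edgeR raised the calls from 0 to 2, MOXD1 and IFI27L2. For the markers of the states the log2 fold changes of MOXD1 OE over CTRL were 0.82 (SE 1.09) for CHAC1, 0.62 (SE 0.886) for ASNS and -0.36 (SE 0.71) for DBH, each with an adjusted p of 1.00 from edgeR. None of the 46 amino acid response genes and none of the 24 ER genes reached an unadjusted p of 0.05. Only 187 of all 15899 genes did, so this is no result about lists of such a size. Each group held samples of both sides, and their spread enters this test. MOXD1 itself had a log2 fold change of 9.59 with an SE of 1.27 and an adjusted p of 0.477. With the replicate number as a block in edgeR's test its adjusted p was 0.00136.

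Tumors were not used to form the sides. Between MOXD1 OE and CTRL tumors edgeR's test called 2 of 16994 genes (0.0118%), namely AL445218.1 and MOXD1, while the unadjusted p was under 0.05 for 972 (5.72%). CHAC1 had 8.16, 17.7, 13.6, 8.56 and 10.3 CPM in CTRL tumors 1 to 5 and 3.78, 17.8, 8.74, 20.2 and 28.04 CPM in MOXD1 OE tumors 1 to 5. ASNS had 21.5, 16.04, 13.6, 15.1 and 16.8 CPM in CTRL tumors and 12.5, 18.8, 14.1, 9.11 and 7.92 CPM in MOXD1 OE tumors. DBH had 1164.6, 1319.6, 1853.2, 2539.1 and 1397.1 CPM in CTRL tumors and 1432.7, 1338.9, 1516.1, 1638.7 and 1410.6 CPM in MOXD1 OE tumors. The groups overlapped for all 3 markers. Their log2 fold changes were 0.42 (SE 0.419) for CHAC1, -0.41 (SE 0.230) for ASNS and -0.17 (SE 0.201) for DBH, with adjusted p of 0.809, 0.745 and 0.831 by the quasi-likelihood test of edgeR, adjusted after Benjamini and Hochberg.

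Of the 45 amino acid response genes tested 0 were called, and the list median per tumor, relative to the mean of the CTRL tumors, ran from -0.20 to 0.15. Since tumors are set against their own CTRL mean, a level shared by all tumors would read as 0, and these values are not on the scale of the cells. The ER list ran from -0.43 to 0.05, its lowest values in MOXD1 OE tumors 4 and 5, which had mitochondrial shares of 25.1% and 34.8% against 8.18% to 20.8% in the other tumors. The part of that share was not tested. Of the 1296 genes higher in the CHAC1-high cells 1102 were tested in the tumors and 1 (AL445218.1) was called. By edgeR's test 130 of the 1102 (11.8%) had an unadjusted p under 0.05, beside 5.72% of all genes tested in the tumors. Of the 586 lower genes 566 were tested, 0 were called and 28 (4.95%) had such a p. The median of the higher genes was largest in MOXD1 OE tumors 4 and 5, at 0.173 and 0.294 against the CTRL mean. The part of their mitochondrial shares in these counts was not tested.

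**Figure D3:**
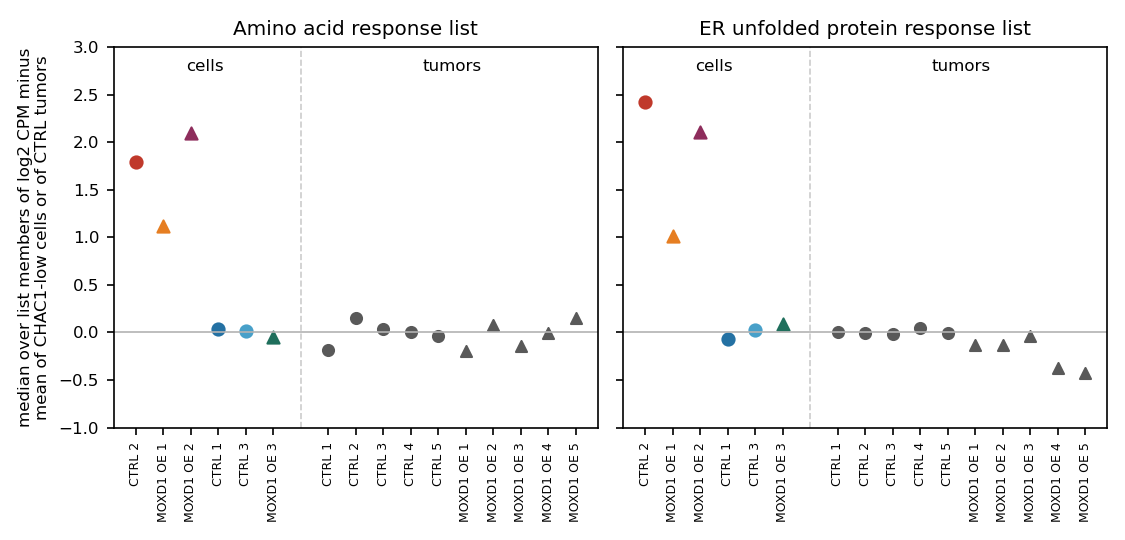
Median over the amino acid response list (left) and the ER list (right) of each sample's log2 CPM, relative to the CHAC1-low mean in cells (colored) and to the CTRL mean in tumors (gray), with circles for CTRL and triangles for MOXD1 OE. The cells reach 2.10 and 2.42 and the tumors lie between -0.43 and 0.15, but the reference differs, so cell and tumor values do not share a scale.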

How the data were processed

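RNA was sequenced from 6 cultured samples and 10 tumors with a stranded poly(A) library kit. The authors aligned reads with HISAT2 to GRCh38, quantified them with StringTie on Ensembl release 94 for the cells and release 99 for the tumors, and deposited gene counts, TPM values and the GC content of each gene in percent. Versions of their tools, and if strand was used in counting, are not given in the sources used here. The files listed 58039 identifiers for the cells and 60676 for the tumors, after removal of 365 and 151 repeated entries. Columns were assigned to samples by name.

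From the deposited counts, genes were filtered with edgeR's filterByExpr (minimum count 10, minimum total 15), scaled by TMM and turned into log2 CPM (prior count 2). Fold differences between the sides are differences of mean log2 CPM. MOXD1 OE was compared with CTRL by edgeR's quasi-likelihood test (edgeR 4.0.16, R 4.3.3) with Benjamini-Hochberg adjustment at 0.05, separately in cells and tumors. The procedure was tested on simulated data. Alternatives were DESeq2 1.42.0, its size factors, no filter, TPM with a pseudocount of 1, removal of mitochondrially encoded genes, a replicate block and leaving out each replicate.

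Tumor libraries held between 22693894 and 33758716 counts, and intervals and floors cover counting error only. The replicates are biologically independent by the study's methods. Deviations of same-numbered samples from their group means correlated at 0.192, 0.677 and 0.682 in the cells, so the numbers were taken to pair the cultures. In the tumors the correlations ran from -0.176 to 0.253.

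The sides, members and lists were chosen with earlier results of these data known. Genes named were the markers, up to 5 members per list with the largest difference and no overlap (mean of at least 1 CPM), the 12 protein-coding genes in each direction outside the lists (at least 5 CPM) and the 8 in which MOXD1 OE 1 departed most. Further members of lists, such as ATF4, DDIT3, SLC7A11 and HSPA5, and the members of small counts were named for their roles after their values were seen.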

Additional observations from a re-analysis of the deposited data

Results flagged for a closer look

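In the CTRL tumors, the value of 1 tumor lay apart from the others for 2 genes of the stress response. NUPR1 had 2.78 CPM in CTRL tumor 4 and between 0.413 and 0.647 CPM in the other CTRL tumors, a gap of 0.778 of the range of the group. DDIT3 had 94.4 CPM in CTRL tumor 4 and between 49.7 and 58.6 CPM in the others, a gap of 0.744 of the range. Of 36 groups of 5 tumors examined, chance would mark about 1 in 20, or 1.8 groups. Among the cells the groups of 3 samples were not examined in this way.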

How the results depend on the processing

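With 3 samples a side and sides formed from the same values, the counts of higher and lower genes describe these 6 cultures only. The 1296 higher genes became 2074 without the filter on low counts, which adds genes of few reads and moved the median difference of all genes to 0.107, and 468 with the authors' TPM. Leaving out 1 sample at a time gave 1473 to 1997 higher and 547 to 1011 lower genes, the upper values without MOXD1 OE 1. The position of MOXD1 OE 1 was 0.477 with TPM and ran from 0.454 (without CTRL 2) to 0.652 (without CTRL 1). DESeq2 size factors and removal of mitochondrially encoded genes left these results within 1.5 times, or within the spread of the positions. That spread is the SD between the positions of CTRL 2 and MOXD1 OE 2, 0.0488. It rests on other genes and does not measure the uncertainty of the position of MOXD1 OE 1.

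Of the differences of single named genes, 1532 values under an alternative stayed on their side and within the replicate spread, 65 moved beyond it and 1 lost its direction, AL163636.2, which is listed at 0 in the authors' TPM.

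For MOXD1 OE against CTRL, the 0 calls in cells became 3 with DESeq2, 2 without the filter and 2 with the replicate block, and 0 to 1 on leaving out 1 sample, with 1 call without CTRL 2. MOXD1 had an adjusted p of 0.00136 with the block. The 2 calls in tumors became 30 with DESeq2 and 5 without the filter, stayed at 2 with the replicate block, and were 2 to 3 on leaving out 1 tumor. The cause of these changes was not tested. DBH, CHAC1 and ASNS were called in none of the block fits.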
